A study of Mus musculus with 8 samples.

Results

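Ly6Clo and Ly6Chi macrophages sorted from the infarcted mouse heart were compared after culture with interleukin 21 (IL-21), to describe which differences between the 2 subsets persisted under the cytokine. The comparison was defined by the sample titles and used 4 of the 8 libraries of the series: 2 of wild type Ly6Clo and 2 of wild type Ly6Chi macrophages, each numbered 1 and 2. The other 4 libraries are the same subsets cultured without IL-21, and they served as the base against which persistence was read. All groups came from wild type C57BL/6 mice aged 8 weeks, 3 days after myocardial infarction, and all cells had been sorted and then held in medium for 24 h, with IL-21 at 100 ng/mL in the treated groups. Neither how many hearts were pooled nor the antibodies and limits of the sort are given in the labels. Nothing says that the numbered libraries came from separate mice or cultures, so the p-values measure only the spread between these libraries, which may be technical.

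Ly6C is a small membrane-anchored antigen of mouse monocytes. Ly6Chi monocytes are recruited from the blood to injured tissue, where they carry out early inflammatory clearance, and macrophages with low Ly6C are associated with later repair in the infarcted heart. IL-21 is a cytokine of activated CD4+ T cells that signals through its own receptor chain (Il21r) and the common gamma chain (Il2rg), Janus kinases and mainly the transcription factor STAT3.

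RNA had been counted by 3' tag sequencing, in which each read marks the end of a transcript, so that levels were not divided by transcript length and were compared only within a gene. The 4 libraries with IL-21 held between 224329 and 444670 counts, and the 4 without held between 257385 and 483593. The number 2 library was the deeper in each Ly6Clo group. Levels are given as CPM, a gene's count per megacount of its library over the 5256 genes that passed the filter on low counts, scaled by trimmed mean of M values, and 3 counts corresponded to between 6.58 and 14.9 CPM. Differences are log2 fold changes of Ly6Clo over Ly6Chi with their standard error (SE), and a gene was called at a Benjamini-Hochberg adjusted p under 0.05 in edgeR's quasi-likelihood test. In bulk RNA, fewer cells of a type and less RNA per cell cannot be told apart.

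Ly6c2 and Ly6c1, which encode the antigen used for the sort, check the labels and are not a finding. With IL-21, Ly6c2 stood at 505 and 372 CPM in the Ly6Chi libraries and at 12.0 and 59.1 CPM in the Ly6Clo libraries. Without IL-21 it stood at 545 and 412 CPM in Ly6Chi and at 45.7 and 74.6 CPM in Ly6Clo. The groups were far apart in both conditions, and every library matched its label. The log2 difference was -3.47 (SE 0.44) with IL-21, 11.1-fold lower in Ly6Clo, with an adjusted p of 0.0206. Between the libraries numbered 1 the difference was -4.76 and between those numbered 2 it was -2.52, the first resting on 3 counts in the Ly6Clo library. Ly6c1 stood at 75.3 and 54.6 CPM in Ly6Chi and 0 and 9.86 CPM in Ly6Clo with IL-21, a difference of -3.36 (SE 0.76) whose adjusted p was 0.346. The transcripts of both genes share 75-base stretches near their 3' ends, 21.9% of those of Ly6c2 among them, so that some reads could be assigned to either.

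The sequences shown are the stretches in front of Ly6c2, a gene of the sort antigen, and of Cxcl2, Cxcl3 and Nfkbia. These other 3 genes were chosen after their values had been seen and were low in Ly6Clo in both conditions. The sequences are from RefSeq promoter windows on GRCm38.p6, cut so that they end at the base before the first exon in GENCODE M21, 5' to 3' on the gene's own strand. Capitals mark GAGGAAGT, an element bound by the myeloid factor PU.1, in Ly6c2, and matches on either strand to the consensus element of NF-kappaB in the other 3 sequences. In Cxcl2 and Cxcl3 the match reads GGGAATTTCC on the strand shown and overlaps another on the opposite strand, so that the capitals run 1 letter further.
Ly6c2, chr15:75111971-75112170, minus strand: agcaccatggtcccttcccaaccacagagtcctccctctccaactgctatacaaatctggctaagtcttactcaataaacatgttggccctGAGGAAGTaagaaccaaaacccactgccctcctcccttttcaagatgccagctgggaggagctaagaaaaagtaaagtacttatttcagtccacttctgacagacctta
Cxcl2, chr5:90903671-90903870, plus strand: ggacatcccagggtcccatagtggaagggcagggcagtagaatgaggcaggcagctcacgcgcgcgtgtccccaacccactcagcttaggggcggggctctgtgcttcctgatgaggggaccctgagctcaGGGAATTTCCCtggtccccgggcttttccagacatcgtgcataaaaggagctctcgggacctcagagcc
Cxcl3, chr5:90785903-90786102, plus strand: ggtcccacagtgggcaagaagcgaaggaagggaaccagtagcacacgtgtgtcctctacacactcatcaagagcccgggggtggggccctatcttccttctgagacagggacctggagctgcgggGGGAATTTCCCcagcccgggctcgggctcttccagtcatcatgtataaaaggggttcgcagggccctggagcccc
Nfkbia, chr12:55492648-55492847, minus strand: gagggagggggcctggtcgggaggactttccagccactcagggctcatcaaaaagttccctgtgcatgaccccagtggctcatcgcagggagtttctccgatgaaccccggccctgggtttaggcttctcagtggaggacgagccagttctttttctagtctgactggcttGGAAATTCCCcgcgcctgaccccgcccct
The match ends 58 bases before the first exon in Cxcl2, 64 bases in Cxcl3, 19 bases in Nfkbia and 101 bases in Ly6c2. Searched on both strands, the NF-kappaB consensus was present in 1.47% of the 32851 promoter windows of 300 bases, the letters GGGAATTTCC in 0.0883% and GAGGAAGT in 3.2%. Of 23 genes looked up, 22 had a window. The NF-kappaB element was found by the consensus and by the letters GGGAATTTCC in Cxcl1, Cxcl2, Cxcl3 and Nfkbia, and GAGGAAGT in Ly6c2, Ly6c1, Bcl2a1a, Bcl2a1b and Bcl2a1d. The letters GGGAATTTCC were taken from the match in Cxcl2, so that their presence in Cxcl2 was fixed in advance. The STAT element TTCNNNGAA, present in 8.3% of windows, was found in Chil3, Fpr2, Serpinb6a and Socs3, its variant TTCCNNGAA (4.81%) in Fpr2 and Serpinb6a, and the elements TGACTCA of AP-1 (5.2%) and TTGCGCAA of C/EBP (0.183%) in none of the 22. These genes were looked up after their values had been seen, and a match describes the letters in the window and not binding.

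Across all expressed genes, Ly6c2 was the single gene called between the subsets under IL-21, which is 0.019% of the 5256 genes tested, and in this fit no gene was called as higher in Ly6Clo. Before adjustment, 277 genes (5.27%) had a p under 0.05, 138 of them higher (2.63%) and 139 lower (2.64%) in Ly6Clo, while 49.4% of all genes lay on the higher side and 50.6% on the lower side. DESeq2 and limma-voom each called 1 gene, Ly6c2 as well. Without IL-21, 2 genes were called (0.0381%), Ly6c2 and the chemokine gene Cxcl3, both lower in Ly6Clo, and 238 genes (4.53%) had an unadjusted p under 0.05, 110 higher (2.09%) and 128 lower (2.44%). Ly6c2 was thus the only gene called in both conditions in that fit. The call for Ly6c2 under IL-21 was lost when either Ly6Chi library with IL-21 was left out (adjusted p 0.423 without number 1, 0.105 without number 2) and when either Ly6Chi library without IL-21 was left out (0.0600 and 0.0641). Its direction was the same in every one of these fits. With no filter on low counts 22 genes were called under IL-21, 11 of them higher in Ly6Clo, and 0 were called when genes needed a mean count of 20 or when only the 4 libraries with IL-21 entered the fit, where Ly6c2 had adjusted p-values of 0.0590 and 0.0892.

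The subset difference with IL-21 and that without were measured on separate libraries, although the labels do not say whether same-numbered libraries came from the same sort. Of the 110 genes with an unadjusted p under 0.05 and a higher level in Ly6Clo without IL-21, 79 (71.8%) were also on the higher side with IL-21, and in 50 (45.5%) both Ly6Clo libraries lay above both Ly6Chi libraries. Over all genes tested, 854 (16.2%) had such non-overlapping groups with Ly6Clo higher and 879 (16.7%) with Ly6Clo lower under IL-21, against 886 (16.9%) and 894 (17%) without it. Of the 128 genes lower in Ly6Clo without IL-21 by the same limit, 110 (85.9%) stayed on the lower side with IL-21 and 66 (51.6%) had non-overlapping groups. The sizes were smaller in the condition that had not been used for the choice: the median log2 difference of the lower genes was -0.96 without IL-21 and -0.39 with it, and for the 138 and 139 genes chosen with IL-21 the medians went from 0.94 to 0.34 and from -1.001 to -0.44. Selection on a small p enlarges the first value of each pair.

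Read across genes, the differences in the 2 conditions had a Pearson r of 0.351 over the 5256 genes (Spearman rho 0.284), of 0.494 over the 2924 genes whose mean count reached 20, and of 0.697 over 705 genes with a mean level above 8 on the log2 CPM scale. Within a condition, the difference between the libraries numbered 1 and that between those numbered 2 agreed less. Their Pearson r over all genes was 0.168 with IL-21 and 0.169 without, each difference resting on single libraries. Deviations of same-numbered libraries from their group means had correlations across the conditions of 0.28 in Ly6Chi and 0.412 in Ly6Clo. The part of this in the agreement between the conditions was not tested. Genes are not independent replicates, and low counts spread the values of weak genes, so these describe the tables only. The same sign was seen in 3130 of 5256 genes (59.6%). Groups were apart in the same direction in both conditions for 253 genes (4.81%) with Ly6Clo higher and 267 (5.08%) with Ly6Clo lower, and apart in opposite directions for 189. At an unadjusted p under 0.05 in each condition, 27 genes (0.514%) were higher in both, 34 (0.647%) were lower in both, and 4 (0.0761%) had opposite signs.

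**Figure D1:**
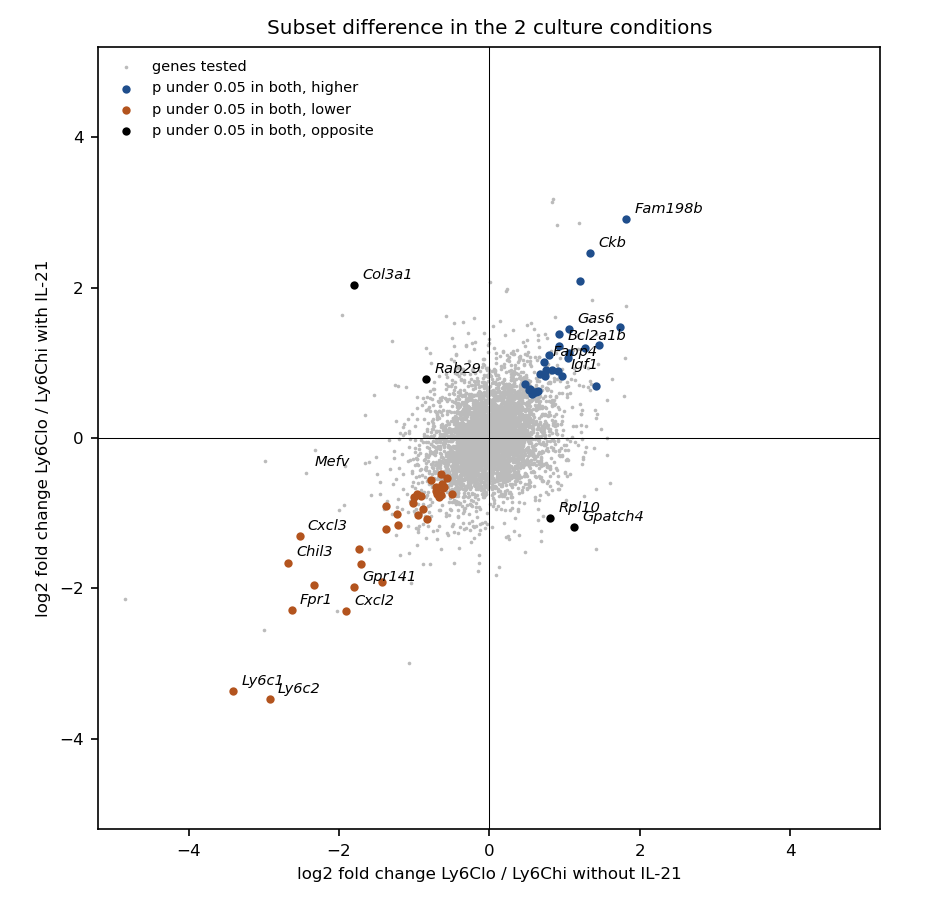
Log2 fold change of Ly6Clo over Ly6Chi without IL-21 (x axis) and with IL-21 (y axis) for 5256 genes, each a grey point. Blue and orange points are the 27 and 34 genes with an unadjusted p under 0.05 in both conditions and the same sign, and black points are the 4 with opposite signs; Ly6c2 and Ly6c1 lie farthest down along the diagonal.

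When the subset difference was averaged over the 2 conditions in the same model, a comparison added after the data had been seen, 10 genes were called (0.19%). Ly6c2, Ly6c1, Cxcl3, Gpr141 and Chil3 were lower in Ly6Clo, and Igf1, Fabp4, Bcl2a1b, Ckb and Serpinb6a were higher. In all 10 genes the 2 groups were apart in both conditions. The fit took the libraries as independent, although the labels do not say whether a number pairs them. Deviations of same-numbered libraries from their group means had correlations of 0.234 to 0.412 between groups. What this does to the SE of the average was not tested. With the replicate number as a block more genes were called, these 10 among them. Ly6c2, Cxcl3 and Gpr141 were called in each of the 17 settings run for this average, and Ly6c1 in 14 of the 16 that tested it. The other 6 genes were called in 8 to 10 settings each, and Fabp4 in none of the 8 fits that left out a library. The number of genes called went from 3 (without the number 1 library of Ly6Chi in either condition) to 21 (without the number 2 library of Ly6Clo without IL-21), and it was 4 without the number 1 library of Ly6Clo without IL-21, 4 without the number 2 library of Ly6Chi with IL-21 and 5 without the number 1 library of Ly6Clo with IL-21.

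**Figure D2:**
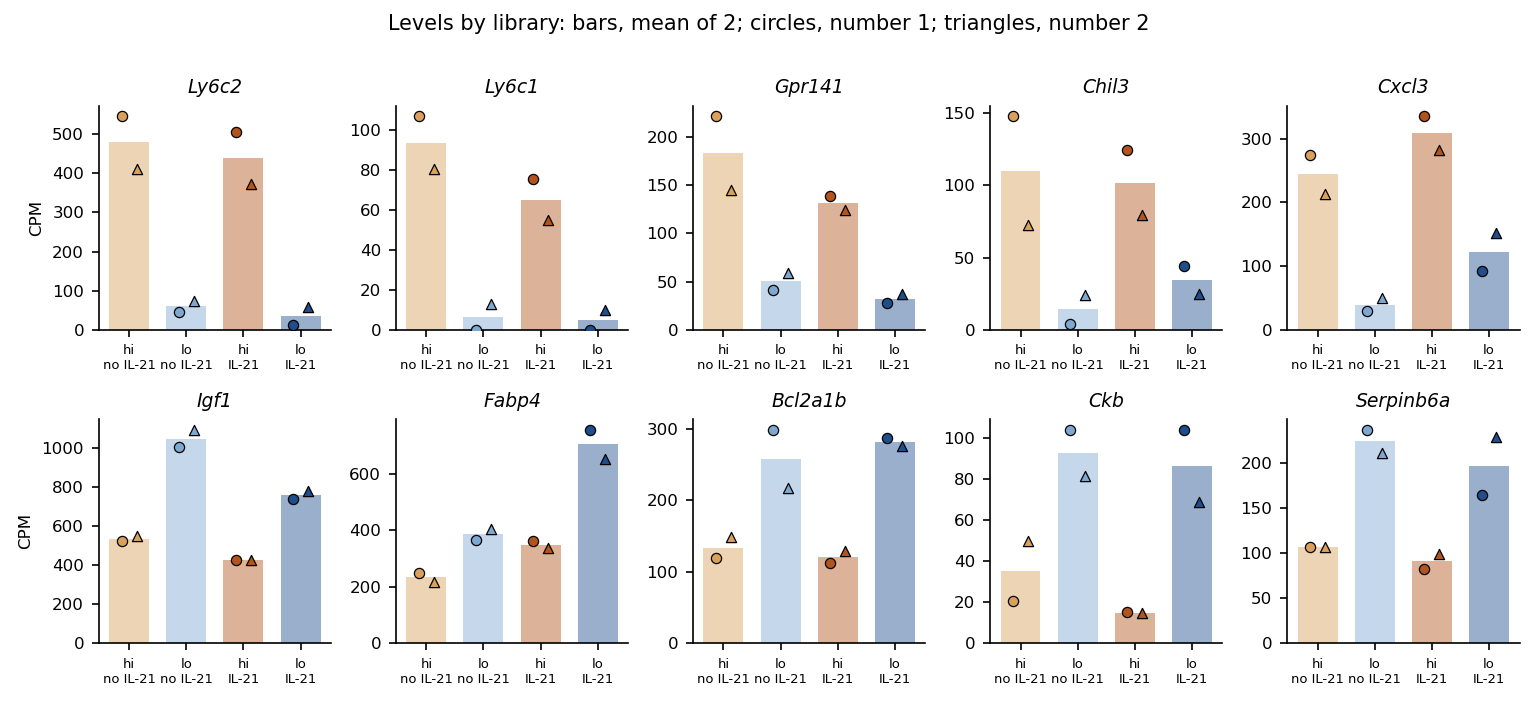
Level in CPM (y axis, linear, from 0) of the 10 genes called for the averaged subset difference, in Ly6Chi (hi, orange) and Ly6Clo (lo, blue) macrophages without and with IL-21. Bars are the mean of 2 libraries, circles the number 1 and triangles the number 2 library; in every panel the 2 subsets do not overlap in either condition.

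Among 16 markers of Ly6Chi monocytes and recruited macrophages, which include Ly6c2 and Ly6c1, 13 were tested, and in 7 of them both Ly6Clo libraries lay below both Ly6Chi libraries in each condition. Without those 2 genes of the sort antigen, 5 of 11 were apart and lower in both conditions (45.5%, against 5.08% of all genes) and none was apart and higher. Their median log2 difference was -0.95 with IL-21 and -1.14 without, against -0.0055 over all genes with IL-21. The list was chosen with earlier results of these data known, so the count describes its members only. Here and for the lists below, the share over all genes includes weakly counted genes and was not matched for level. Agreement between the conditions was closer in strong genes (Pearson r 0.697 above 8 on the log2 CPM scale, 0.351 over all). The part of level in the share of a list was not tested. Gpr141, an orphan receptor gene of myeloid cells, stood at 139 and 124 CPM in Ly6Chi and 28.0 and 37.0 CPM in Ly6Clo with IL-21. Its level without IL-21 was 221 and 145 CPM in Ly6Chi and 41.5 and 59.3 CPM in Ly6Clo. The Ly6Clo libraries were low in both conditions, with log2 differences of -1.98 (SE 0.38) with IL-21 (adjusted p 0.302) and -1.80 (SE 0.34) without, and -1.89 (SE 0.25) on average (adjusted p 0.00431).

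Chil3, which encodes the chitinase-like protein Ym1, stood at 124 and 79.4 CPM in Ly6Chi and 44.0 and 24.6 CPM in Ly6Clo with IL-21. The difference was -1.66 (SE 0.51) with IL-21 (adjusted p 0.831), -2.67 (SE 0.55) without and -2.16 (SE 0.38) on average (adjusted p 0.036). Vcan, the matrix proteoglycan versican, stood at 275 and 119 CPM in Ly6Chi and 48.0 and 59.1 CPM in Ly6Clo with IL-21, a difference of -1.88 (SE 0.46) that did not pass the test (adjusted p 0.503). Its number 1 library of Ly6Chi was well above the number 2 library, so that the difference was -2.36 between the libraries numbered 1 and -0.93 between those numbered 2. The remaining members whose groups were apart, Plac8 and Hp, named after their values were seen, had wide spreads: Plac8 stood at 71.5 and 184 CPM in Ly6Chi and 3.997 and 32.0 CPM in Ly6Clo, and Hp at 331 and 49.6 CPM and 48.0 and 41.9 CPM. Ccr2, the receptor that draws monocytes from the marrow to sites of injury, did not separate the sorted subsets: its level was 97.9 and 164 CPM in Ly6Chi and 168 and 61.6 CPM in Ly6Clo with IL-21, and the groups overlapped. Its difference was 0.74 between the libraries numbered 1 and -1.32 between those numbered 2.

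Of 25 inflammatory cytokine and chemokine genes, 17 were tested under IL-21, 2 had groups apart with Ly6Clo higher and 5 with Ly6Clo lower (11.8% and 29.4%, against 16.2% and 16.7% of all genes), and the median was 0.16 with IL-21 and -0.063 without. Members with the smallest p were Cxcl3 and Cxcl2, which encode ligands of the neutrophil receptor CXCR2, and Il1b, which encodes the cytokine interleukin 1 beta. Cxcl3 stood at 335 and 283 CPM in Ly6Chi and 91.9 and 153 CPM in Ly6Clo with IL-21, and at 275 and 214 CPM and 29.1 and 50.5 CPM without. Ly6Clo was lower in both conditions, with a difference of -1.30 (SE 0.30) with IL-21 (adjusted p 0.346) and -2.52 (SE 0.35) without (adjusted p 0.0156). The Ly6Clo libraries with IL-21 lay above those without, and the change in the subset difference was 1.22 (SE 0.46), which did not pass the test (adjusted p 1). Cxcl2 stood at 279 and 218 CPM in Ly6Chi and 28.0 and 66.5 CPM in Ly6Clo with IL-21, a difference of -2.31 (SE 0.51) with an adjusted p of 0.44, and of -1.90 without IL-21. Il1b rested on few counts, at 45.2 and 4.96 CPM in Ly6Chi and 0 and 4.93 CPM in Ly6Clo with IL-21, a difference of -3.00 (SE 1.35) (adjusted p 0.918). Of other CXCR2 ligands, Cxcl1 was not tested for low counts, and the platelet gene Ppbp overlapped with IL-21, at 147 and 209 CPM in Ly6Chi and 172 and 108 CPM in Ly6Clo.

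Nfkbia, the inhibitor of NF-kappaB that is itself induced by the pathway, stood at 1754 and 1296 CPM in Ly6Chi and 887 and 934 CPM in Ly6Clo with IL-21, and at 1447 and 999 CPM and 515 and 737 CPM without. Both Ly6Clo libraries were the lower ones in each condition, with differences of -0.74 (SE 0.25) with IL-21 (adjusted p 0.913) and -0.96 without. Sod2, the mitochondrial superoxide dismutase, is among the 34 genes low in both conditions and stood at 1807 and 1132 CPM in Ly6Chi and 464 and 798 CPM in Ly6Clo with IL-21, with differences of -1.21 with IL-21 and -1.37 without.

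Of 9 tested chemoattractant receptor genes, 3 had groups apart (33.3%, against 5.08% of all genes), all with Ly6Clo lower and all in both conditions, and the other 6 overlapped with IL-21. Fpr1 and Fpr2, receptors for formyl peptides released by bacteria and damaged mitochondria, stood at 331 and 89.4 CPM and 425 and 248 CPM in the Ly6Chi libraries and at 19.99 and 61.6 CPM and 32.0 and 131 CPM in the Ly6Clo libraries with IL-21. The differences were -2.28 (SE 0.83) for Fpr1 and -1.96 (SE 0.70) for Fpr2, each with an adjusted p of 0.913, and Fpr1 ranged from -3.65 between the libraries numbered 1 to -0.49 between those numbered 2. Cmklr1, the chemerin receptor, stood at 256 and 293 CPM in Ly6Chi and 124 and 189.8 CPM in Ly6Clo, a difference of -0.78 (SE 0.27). None of these passed the test under IL-21.

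On the Ly6Clo side, Igf1, the insulin-like growth factor that macrophages release in repair, was among the genes called for the averaged difference. With IL-21 it stood at 425 and 427 CPM in Ly6Chi and 735 and 779 CPM in Ly6Clo, and without IL-21 at 521 and 549 CPM and 1001 and 1091 CPM. Ly6Clo was higher by 0.83 (SE 0.21) with IL-21 (adjusted p 0.503), by 0.97 (SE 0.21) without and by 0.90 (SE 0.15) on average (adjusted p 0.0226). The differences between libraries numbered 1 and those numbered 2 with IL-21 were 0.78 and 0.86.

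Fabp4, a fatty acid carrier of macrophages and fat cells, stood at 361 and 338 CPM in Ly6Chi and 755 and 653 CPM in Ly6Clo with IL-21, and at 250.1 and 217 CPM and 365 and 406 CPM without. The difference was 1.01 (SE 0.22) with IL-21 (adjusted p 0.346) and 0.73 without. Ckb, the brain-type creatine kinase, stood at 15.1 and 14.9 CPM in Ly6Chi, 4 and 3 counts, and 104 and 69.0 CPM in Ly6Clo with IL-21, a difference of 2.46 (SE 0.52) (adjusted p 0.346). Bcl2a1b, a BCL2 family gene that protects leukocytes from apoptosis, stood at 113 and 129 CPM in Ly6Chi and 288 and 276 CPM in Ly6Clo with IL-21, a difference of 1.22 (SE 0.27) (adjusted p 0.346). Of its 75-base stretches near the 3' end 66.6% also occur in other genes, Bcl2a1d first, and the deposited counts are fractional in all 8 libraries, so the value may belong to the family and not to this copy. Serpinb6a, a serine protease inhibitor gene that overlaps Nqo2 and Ripk1 on the other strand, stood at 82.8 and 99.3 CPM in Ly6Chi and 164 and 229 CPM in Ly6Clo with IL-21, a difference of 1.13 (SE 0.29) (adjusted p 0.503).

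Pou1f1 had the largest estimate on the Ly6Clo side among the genes named by rank, with 11.3 and 9.93 CPM in Ly6Chi and 144 and 66.5 CPM in Ly6Clo under IL-21, a difference of 3.18 (SE 0.64) and an adjusted p of 0.346. The Ly6Chi values rest on 3 and 2 counts. Without IL-21 the difference was 0.85, from 69.7 and 30.5 CPM in Ly6Chi and 116 and 70.2 CPM in Ly6Clo. The product is a transcription factor of the pituitary, and 51 of the 968 stretches near the 3' end of its transcripts recur in 10 other genes.

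Markers of Ly6Clo and resident macrophages lay on both sides. Of 23 listed, 15 were tested, 6 had groups apart with Ly6Clo higher and 3 with Ly6Clo lower under IL-21 (40% and 20%, against 16.2% and 16.7% of all genes), and the median was 0.17. The 6 higher members were apart in both conditions, where the share over all genes was 4.81%. They include the 3 chains of complement C1q, the opsonin that labels dying cells: C1qa stood at 579.8 and 561 CPM in Ly6Chi and 859 and 1018 CPM in Ly6Clo, and C1qc at 478 and 596 CPM and 1003 and 850.2 CPM. The differences with IL-21 were 0.72 (SE 0.21) for C1qa, 0.45 for C1qb and 0.79 for C1qc, and without it 0.47, 0.39 and 0.44. Gas6, the bridging ligand of the efferocytosis receptors MERTK and AXL, stood at 75.3 and 94.3 CPM in Ly6Chi and 272 and 195 CPM in Ly6Clo with IL-21, a difference of 1.45 (SE 0.38) with an adjusted p of 0.594.

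Other members of the same list lay on the opposite side. Adgre1, which encodes the macrophage antigen F4/80, stood at 1254 and 963 CPM in Ly6Chi and 751 and 547 CPM in Ly6Clo with IL-21, so that the Ly6Clo libraries were the lower ones, and the same held without IL-21 (1033 and 862 CPM against 602 and 590.4 CPM). The difference was -0.78 (SE 0.23) with IL-21 (adjusted p 0.807) and -0.67 without. Maf, a transcription factor of resident macrophages, stood at 896 and 899 CPM in Ly6Chi and 576 and 641 CPM in Ly6Clo, a difference of -0.56 (SE 0.22). Csf1r, the receptor for the macrophage growth factor CSF1, overlapped between the subsets (1145 and 685 CPM and 807 and 624 CPM), and Mrc1, the mannose receptor, did so too (395 and 174 CPM and 476 and 189.8 CPM). Cx3cr1, the fractalkine receptor that marks patrolling monocytes, had 13 counts over the 8 libraries and was not tested.

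Genes of wound healing and alternative activation had a median of 0.22 over 13 tested members, with 6 groups apart and higher in Ly6Clo in both conditions (46.2%, against 4.81% of all genes) and 2 lower (15.4%, against 5.08%). Chil3, described above, is also in this list and is 1 of the 2 lower members (-1.66 with IL-21 and -2.67 without). Spp1, the matrix protein osteopontin, stood at 3539 and 3679 CPM in Ly6Chi and 10369 and 4806 CPM in Ly6Clo with IL-21, and its difference of 1.07 (SE 0.44) came mostly from the number 1 library of Ly6Clo (1.55 against 0.38 between the libraries numbered 2). Trem2, a lipid-sensing receptor, stood at 151 and 159 CPM in Ly6Chi and 292 and 244 CPM in Ly6Clo, a difference of 0.78 (SE 0.25). Arg1, the arginine-degrading enzyme, stood at 1822 and 1738 CPM in Ly6Chi and 2030.5 and 2354 CPM in Ly6Clo with IL-21, against 409.97 and 595 CPM and 598 and 617 CPM without. The subset difference of Arg1 was 0.30 (SE 0.22) with IL-21 and 0.27 without, small beside the gap between the culture conditions.

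Of 16 lipid handling genes tested, 11 were on the higher side in Ly6Clo with IL-21 (median 0.32) and 9 without (median 0.11). With IL-21, 6 were apart and higher and 2 apart and lower (37.5% and 12.5%, against 16.2% and 16.7% of all genes). Lpl, lipoprotein lipase, stood at 2820.1 and 2631 CPM in Ly6Chi and 5704 and 3568 CPM in Ly6Clo, a difference of 0.76 (SE 0.27). All 21 lysosomal genes were tested, and 14 were on the higher side with IL-21 (median 0.13) and 10 without (median -0.0031). With IL-21, 8 had groups apart and higher and 2 apart and lower (38.1% and 9.52%, against 16.2% and 16.7% of all genes). Without it these were 6 and 4 (28.6% and 19%, against 16.9% and 17%). In both conditions 5 were apart and higher (23.8%, against 4.81%) and 1 apart and lower (4.76%, against 5.08%). Ctsl, the protease cathepsin L, stood at 5644 and 6266 CPM in Ly6Chi and 9873 and 8285 CPM in Ly6Clo with IL-21 and 5801 and 5038 CPM and 9620.5 and 7095 CPM without. Its differences of 0.61 (SE 0.22) and 0.62 were nearly equal, and neither passed the test.

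Matrix genes lay on both sides in both conditions. Mmp8, a collagenase better known from neutrophils, stood at 2154 and 1579 CPM in Ly6Chi and 1159 and 692 CPM in Ly6Clo with IL-21, a difference of -1.02 (SE 0.42). Timp2, an inhibitor of matrix proteases, stood at 275 and 159 CPM in Ly6Chi and 596 and 357 CPM in Ly6Clo, a difference of 1.10 (SE 0.34). Over the 13 tested members, 3 were apart and higher and 4 apart and lower in both conditions (23.1% and 30.8%, against 4.81% and 5.08% of all genes).

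For antigen presentation, 7 of 13 genes were tested and 6 were on the higher side in Ly6Clo in each condition. H2-Ab1, a chain of the MHC class II molecule, stood at 328 and 263 CPM in Ly6Chi and 544 and 446 CPM in Ly6Clo with IL-21, a difference of 0.73 (SE 0.24), and 0.33 without. Cd74, the invariant chain that escorts class II molecules, stood at 124 and 124 CPM in Ly6Chi and 199.9 and 199.6 CPM in Ly6Clo with IL-21, a difference of 0.68 (SE 0.28), while without IL-21 its groups overlapped (143 and 225 CPM and 191 and 179.96 CPM) and the difference was 0.00079. The change between conditions for Cd74 was 0.68 (SE 0.39) and did not pass the test (adjusted p 1).

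Of 11 genes for the receptor chains of IL-21, Janus kinases and STAT factors, 9 were tested, and with IL-21 3 were apart and higher in Ly6Clo and 3 apart and lower (33.3% each, against 16.2% and 16.7% of all genes). Without IL-21 none was apart and higher (against 16.9% of all genes) and 3 were apart and lower (33.3%, against 17%). Of these 3, 1 was apart and lower in both conditions (11.1% of the 9, against 5.08%). The medians were -0.29 with IL-21 and -0.24 without. No member had an unadjusted p under 0.05 with IL-21. Jak1, a kinase of the IL-21 receptor, stood at 380.3 and 447 CPM in Ly6Chi and 328 and 313 CPM in Ly6Clo with IL-21, a difference of -0.37 (SE 0.22). Il21r stood at 173 and 273 CPM in Ly6Chi and 184 and 168 CPM in Ly6Clo with IL-21, with overlapping groups, a difference of -0.33 (SE 0.29), and -0.35 without. Il2rg, the shared receptor chain, stood at 248 and 209 CPM in Ly6Chi and 159.9 and 170.1 CPM in Ly6Clo, a difference of -0.47 (SE 0.29), and 34.8% of its 75-base stretches near the 3' end also occur in an overlapping gene model. Of 20 genes linked to STAT3, 14 were tested, and the median was -0.33 with IL-21 and -0.46 without, with 5 of 14 on the higher side with IL-21 and 1 of 14 without. Groups were apart and lower in Ly6Clo for 4 of the 14 with IL-21 (28.6%, against 16.7% of all genes) and for 8 without (57.1%, against 17%).

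Socs3, the feedback inhibitor that STAT3 induces, overlapped with IL-21, at 226 and 119 CPM in Ly6Chi and 159.9 and 123 CPM in Ly6Clo, and was apart without it, at 41.0 and 38.1 CPM and 8.30 and 15.4 CPM. The subset difference was -0.33 (SE 0.33) with IL-21 and -1.60 (SE 0.57) without. Without IL-21 the Ly6Clo values rest on few counts, and the change of 1.27 (SE 0.66) between conditions did not pass the test (adjusted p 1).

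All 27 listed interferon-stimulated genes were tested. On the higher side in Ly6Clo were 3 of 27 with IL-21 and 2 of 27 without, with medians of -0.26 and -0.33. With IL-21, groups were apart and lower for 5 (18.5%, against 16.7% of all genes) and apart and higher for 1 (3.7%, against 16.2%). Without it 9 were apart and lower (33.3%, against 17%) and none apart and higher (against 16.9%). In both conditions 3 were apart and lower (11.1%, against 5.08%). With IL-21 the median was -0.52 between the libraries numbered 1 and -0.20 between those numbered 2. Ly6e, an interferon-induced membrane protein, stood at 2169 and 2095 CPM in Ly6Chi and 1431 and 1792 CPM in Ly6Clo, a difference of -0.40 (SE 0.21), and -0.45 without. No member of the list had an unadjusted p under 0.05 under IL-21. Interferon-induced genes outside the list, such as Ifi209 and Oas3, named after their values were seen, were among the 34 genes lower in both conditions.

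Of 51 ribosomal protein genes tested, 43 were on the higher side in Ly6Clo with IL-21 (median 0.20) and 47 without (median 0.22). Groups were apart and higher for 14 with IL-21 (27.5%, against 16.2% of all genes), for 21 without (41.2%, against 16.9%) and for 7 in both (13.7%, against 4.81%). Rplp1, a chain of the ribosomal stalk, stood at 422 and 362 CPM in Ly6Chi and 715 and 628 CPM in Ly6Clo, a difference of 0.77 (SE 0.22), with 46.0% of its 75-base stretches near the 3' end shared with other genes. The median was 0.14 between the libraries numbered 1 and 0.40 between those numbered 2, and the number 2 library of Ly6Clo was the deeper of the pair. The part of depth in this was not tested. Nuclear-encoded respiratory chain genes had a median of 0.14 with IL-21, with 22 of 30 on the higher side, and of 0.025 without. With IL-21 their median was -0.060 between the libraries numbered 1 and 0.41 between those numbered 2.

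**Figure D3:**
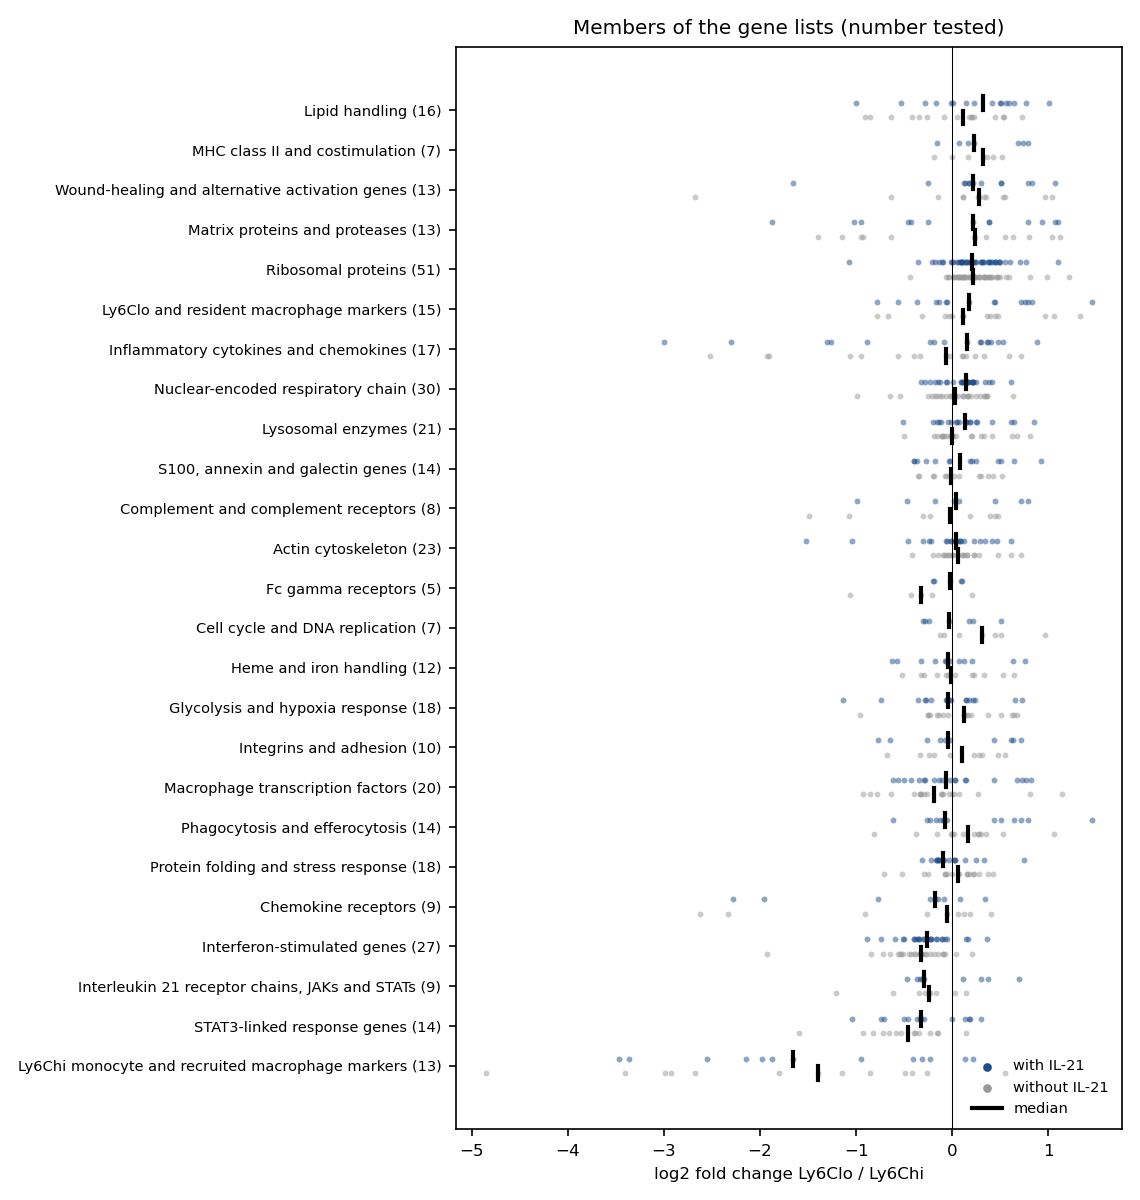
Log2 fold change of Ly6Clo over Ly6Chi (x axis) for tested members of the 25 gene lists with at least 5 of them (y axis, number tested in brackets), with IL-21 in blue and without in grey. Each point is a gene and each black bar a median; the Ly6Chi markers, which include the sort antigen genes Ly6c2 and Ly6c1, have medians of -1.66 and -1.40, and most other medians lie within 0.35 of 0.

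No gene was called for a change in the subset difference between the conditions: 0 of 5256 passed, and 92 (1.75%) had an unadjusted p under 0.05. DESeq2 and limma-voom called 0 each. With 2 libraries a group, changes could be missed. With no filter on low counts 1 gene was called, Rpl10 (adjusted p 0.0424). It was also called with the replicate number as a block (adjusted p 0.00429), although the labels do not say that a number pairs libraries. Rpl10, which encodes a protein of the large ribosomal subunit and lies on the X chromosome, ranked first. It stood at 354 and 343 CPM in Ly6Chi and 196 and 140.5 CPM in Ly6Clo with IL-21, and at 201 and 179 CPM and 316 and 347 CPM without. The order of the subsets was opposite in the 2 conditions, with no overlap in either, and the change was -1.87 (SE 0.34) with an adjusted p of 0.394. Near its 3' end 88.2% of the 75-base stretches recur in 11 other genes, mostly its processed copies, so the counts depend on how such reads were assigned.

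Gpatch4, a nuclear protein gene, stood at 56.5 and 64.5 CPM in Ly6Chi and 32.0 and 22.2 CPM in Ly6Clo with IL-21 and at 24.6 and 42.0 CPM and 87.2 and 63.6 CPM without, a change of -2.31 (SE 0.61). Rab29, a small GTPase of vesicle traffic, went the other way, from 86.1 and 87.7 CPM in Ly6Chi and 41.5 and 52.7 CPM in Ly6Clo without IL-21 to 45.2 and 39.7 CPM and 79.9 and 69.0 CPM with it, a change of 1.62 (SE 0.49). Both have an adjusted p of 1.

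Some differences seen without IL-21 were small under it. Mefv, which encodes the inflammasome sensor pyrin, stood at 65.6 and 76.3 CPM in Ly6Chi and 8.30 and 15.4 CPM in Ly6Clo without IL-21, a difference of -2.44 (SE 0.46). With IL-21 it stood at 60.2 and 69.5 CPM and 40.0 and 51.8 CPM, a difference of -0.46 (SE 0.39), so that Ly6Clo was still the lower group but the gap was narrower. Fcgr2b, the inhibitory Fc receptor, stood at 135 and 111 CPM in Ly6Chi and 66.4 and 52.7 CPM in Ly6Clo without IL-21, and at 147 and 104 CPM and 164 and 111 CPM with it, where the groups overlapped. The changes of 1.98 (SE 0.61) for Mefv and 1.16 (SE 0.47) for Fcgr2b did not pass the test (adjusted p 1 each).

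**Figure D4:**
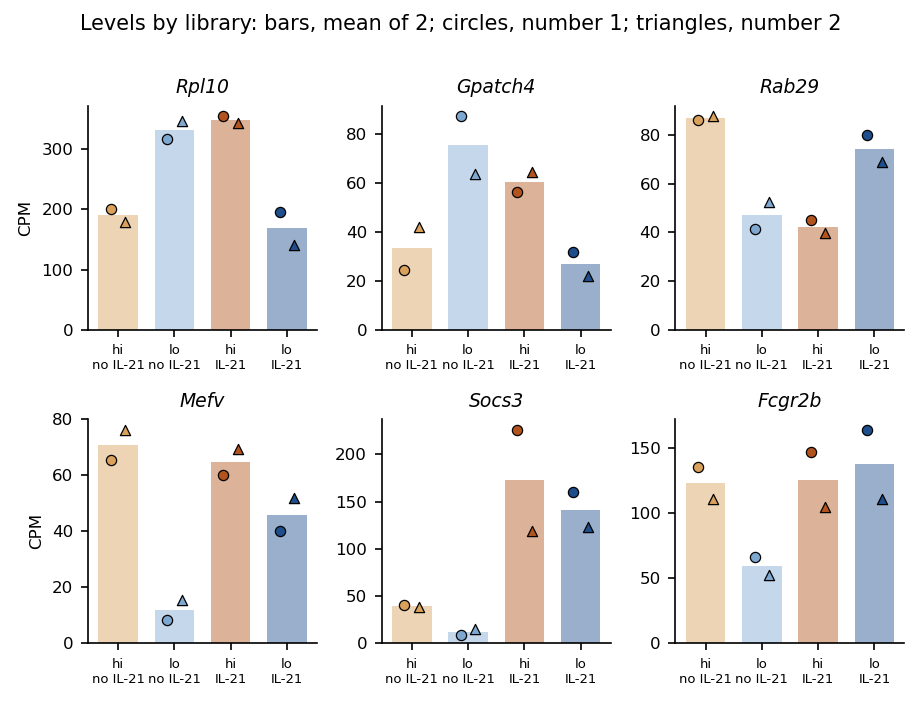
Level in CPM (y axis, linear, from 0) of 6 genes whose subset difference was estimated to vary between conditions, in Ly6Chi (hi, orange) and Ly6Clo (lo, blue) macrophages without and with IL-21. Bars are the mean of 2 libraries, circles the number 1 and triangles the number 2 library; Rpl10, Gpatch4 and Rab29 reverse their order, while Socs3 and Fcgr2b overlap with IL-21 only, and no change passed the test.

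The sorted populations were checked against markers of other cells. Under IL-21, 8 of 9 B cell markers, 7 of 13 T and NK cell markers and 7 of 14 neutrophil markers, Ly6g, Mpo and Elane among them, were at 0 in all 4 libraries. The summed level of the 14 neutrophil markers was nevertheless higher in Ly6Chi, at 2349 and 1693 CPM against 1239 and 843 CPM in Ly6Clo with IL-21, and at 2169 and 1411 CPM against 1266 and 652 CPM without. Most of it was Mmp8. Without Mmp8 the sum was 196 and 114 CPM in Ly6Chi and 79.9 and 150.3 CPM in Ly6Clo with IL-21, and the groups overlapped. Itgam, which encodes CD11b, was also at 0 in all 4, although macrophages carry this protein, so a 0 in these files need not mean absence. For 13 T and NK cell markers the sum was 569 and 869 CPM in Ly6Chi and 660 and 872 CPM in Ly6Clo with IL-21. For 9 platelet markers it was 2914 and 3758 CPM in Ly6Chi and 3425.5 and 2915 CPM in Ly6Clo. The subsets overlapped in both sums. The summed level of 12 cardiomyocyte markers was 0 and 24.8 CPM in Ly6Chi and 139.9 and 24.6 CPM in Ly6Clo with IL-21, with Myh7 and Ckm at 0. The summed level of 14 fibroblast markers was 30.1 and 104 CPM in Ly6Chi and 164 and 185 CPM in Ly6Clo with IL-21, whereas without IL-21 it was 94.3 and 209.8 CPM in Ly6Chi and 29.1 and 50.5 CPM in Ly6Clo. Col3a1, a fibrillar collagen chain and 1 of the 4 genes of opposite sign, followed this pattern, with 1 and 3 counts in Ly6Chi and 10 and 14 in Ly6Clo with IL-21. Fabp4 is also a gene of endothelial cells, and the other endothelial markers were at or near 0 except Kdr (94.1 and 338 CPM in Ly6Chi and 95.9 and 187 CPM in Ly6Clo). Of 11 tested pan-leukocyte and macrophage markers, 1 was on the higher side in Ly6Clo in each condition (medians -0.20 with IL-21 and -0.27 without). Among them 2, Ptprc and Adgre1, were apart and lower in both conditions (18.2%, against 5.08% of all genes). Ptprc, a pan-leukocyte gene, stood at 700 and 551 CPM in Ly6Chi and 456 and 370 CPM in Ly6Clo with IL-21. Its difference was -0.61 (SE 0.23) with IL-21 and -0.63 without. The part of other cells in the subset differences was not tested.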

How the data were processed

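RNA of 8 libraries was sequenced from the 3' end of transcripts with a QuantSeq 3' FWD kit and its module for unique molecular identifiers, per the labels' protocols. Each file lists expected counts by Ensembl gene as deposited, fractional in all 8 libraries and marked as raw per the file headers. The submitters' processing notes name mm10 and DESeq2. For the aligner, the counter, the annotation and any use of molecular identifiers or strand, the answer is not given in the sources used here. If identifiers were not applied, amplified copies of a molecule would be counted more than once. Columns were read by name, since 2 of the 8 files hold them in another order.

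Expected counts were rounded and tested in edgeR 4.0.16 (R 4.3.3), although a test on whole counts had been planned. Genes were kept by filterByExpr (minimum count 10, minimum total 15), which left 5256 of 53342 identifiers, and 53237 identifiers matched GENCODE M21 symbols. Library sizes were scaled by TMM, and a robust quasi-likelihood model with 4 group means was fitted to all 8 libraries, with 4 residual degrees of freedom. P-values were adjusted by Benjamini-Hochberg over all genes tested, and calls were made under 0.05. Counts in tested genes ranged from 208148 to 445897 a library, and counting error alone is large for genes near the floor of 3 counts. Genes were named by rank and by list: the 5 with the smallest p in a direction where fewer were called, the genes called without IL-21, the 5 a direction for the change between conditions, up to 4 members of each list, and 14 genes always given. The members and lists were chosen with earlier results of these data known. Alternatives were other scalings and filters, unrounded values, DESeq2 1.42.0, limma-voom (limma 3.58.1), fits of fewer libraries and the replicate number as a block. The fit was tested on simulated data.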

Additional observations from a re-analysis of the deposited data

How the results depend on the processing

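Other scalings of the libraries, unrounded values, DESeq2 and limma-voom left the counts of genes called within 1.5 times those reported. With no filter on low counts, 22 genes were called with IL-21 (11 higher and 11 lower in Ly6Clo), 16 without, 9 in both and 58 on average (24 higher, 34 lower), and 1 for the change between conditions, Rpl10. With a mean count of at least 20, 0 were called with IL-21, 1 without and 0 in both, and when only the 4 libraries compared were fitted, 0 were called with IL-21 and 0 in both. With the replicate block, 41 genes were called with IL-21 (23 higher, 18 lower), 31 without (9 higher, 22 lower), 16 in both, 132 on average (59 higher, 73 lower) and 1, Rpl10 (adjusted p 0.00429), for the change. The labels do not say that a number pairs libraries, and with 2 numbers a group the deviations of same-numbered libraries had correlations of 0.234 to 0.412. Leaving out 1 library at a time, on the same genes and with a lone library assumed to vary like the other groups, gave 0 to 2 calls with IL-21, 0 to 2 without, 0 to 1 in both and 3 to 21 on average. The cause of these shifts was not tested. In the same fits the log2 difference with IL-21 changed sign in Il21r (-0.64 to 0.019), Csf1r (-0.68 to 0.058), Socs3 (-0.69 to 0.23), Ccr2 (-1.06 to 0.38) and Mrc1 (-0.61 to 0.90), genes whose groups overlapped. For Ly6c2 it ran from -5.15 to -2.89. A count of 3 equals 6.58 to 14.9 CPM in these libraries, so levels near it rest on few counts and differences there could be missed.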
